A study of Mus musculus with 12 samples.

Results

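T cell and B cell marker transcripts were followed in whole kidney of mice with adenine-induced CKD, through 9 genes chosen by name from their textbook use as lymphocyte markers. They are 9 of the 22053 rows of the deposited table: Cd3d, Cd3e and Cd3g of the T cell receptor complex, the T cell co-receptors Cd4, Cd8a and Cd8b1, and the B cell genes Cd79a, Cd79b and Ms4a1. The study asked how iron given to mice with CKD alters the injured kidney, and its RNA sequencing compared 3 groups of 4 wild-type C57BL/6 mice, with 1 library of whole kidney tissue per mouse. Control mice ate the same diet without adenine, whereas CKD mice ate it with 0.2% adenine, in each case from 8 to 16 weeks of age. CKD+Fe mice ate the adenine diet over the same weeks and were injected i.p. every week with iron dextran at 0.5 g/kg. Control and CKD mice were injected with PBS on the same schedule. The adenine diet injures the tubules of the whole kidney, so the model isolates no single cell type. The authors deposited the values as FPKM, fragment numbers divided by transcript length and by the sequencing total of the mouse, so that levels can be compared between genes of different length. Mice are named by the numbers their labels carry.

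T cells recognise antigen through a receptor whose CD3 chains carry the signal into the cell. The co-receptor CD4 marks helper and regulatory T cells, although some myeloid cells carry it too, and the paired chains of CD8 mark cytotoxic T cells. B cells signal through the paired chains CD79A and CD79B under their surface immunoglobulin, and CD20, the product of Ms4a1, is a membrane protein of mature B cells that is lost when they become plasma cells. Lymphocytes are sparse in the healthy kidney and gather in the interstitium of chronically injured kidneys.

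The CD3 genes are neighbours on chromosome 9 (mouse build GRCm38), within 40056 bases. Cd3g (44969572 to 44980431, minus strand) and Cd3d (44981793 to 44987052, plus strand) are transcribed away from each other across a gap of 1354 bases, and Cd3e (44998743 to 45009590, minus strand) follows. Their promoters are shown because these 3 neighbours had similar patterns across the mice. Genes elsewhere, such as Cd4 on chromosome 6, shared that pattern, and the part of the promoters in it was not tested. The set of RefSeq promoters used here (GRCm38.p6) held an entry for 5 of the 9 genes, Cd3d, Cd3e, Cd3g, Cd8a and Cd79a. The windows below run from 250 to 21 bases before the annotated start, 5′ to 3′ on the strand of the gene. They lie at chr9:44981536-44981765 (plus strand) for Cd3d, chr9:45009632-45009861 (minus strand) for Cd3e and chr9:44980452-44980681 (minus strand) for Cd3g. Capitals mark matches on either strand to 5 motifs of lymphocyte factors, an ETS motif (GGAAGT), an E-box (CACCTG), a RUNX motif (TGTGGT), a TCF/LEF motif (CTTTGA) and the octamer (ATGCAAAT).
Cd3d: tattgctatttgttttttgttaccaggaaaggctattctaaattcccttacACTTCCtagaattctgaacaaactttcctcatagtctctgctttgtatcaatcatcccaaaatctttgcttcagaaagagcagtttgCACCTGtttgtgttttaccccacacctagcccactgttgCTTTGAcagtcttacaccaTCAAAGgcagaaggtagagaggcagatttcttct
Cd3g: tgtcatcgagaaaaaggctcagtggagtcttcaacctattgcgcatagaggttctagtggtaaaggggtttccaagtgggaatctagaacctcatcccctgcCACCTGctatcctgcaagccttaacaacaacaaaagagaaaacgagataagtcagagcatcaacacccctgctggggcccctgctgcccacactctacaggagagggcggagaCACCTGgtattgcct
Cd3e: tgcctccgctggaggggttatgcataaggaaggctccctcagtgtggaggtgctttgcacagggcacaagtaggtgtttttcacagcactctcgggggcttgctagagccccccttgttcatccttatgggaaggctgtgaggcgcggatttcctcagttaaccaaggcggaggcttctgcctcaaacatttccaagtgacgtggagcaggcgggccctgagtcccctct
The window of Cd3d held 1 ETS match, 1 E-box and 2 TCF/LEF matches, and that of Cd3g held 2 E-boxes. That of Cd3e held none of the 5, nor did the window of Cd8a on chromosome 6. The window of Cd79a held 1 ETS match and 1 E-box, and it is not printed because 96 of its bases lie inside the gene. No matches overlapped. Among all 32851 promoter windows of the same length, 17.6% held the ETS motif, 16% the E-box, 13.2% the RUNX motif, 13.0% the TCF/LEF motif and 1.53% the octamer. A match is a run of letters and not evidence of binding.

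The other genes lie on further chromosomes of GRCm38. Cd8b1 (71322788 to 71337494) and Cd8a (71373427 to 71379173) are neighbours on chromosome 6, 35932 bases apart and both on the plus strand, and Cd4 lies on the minus strand of the same chromosome (124864692 to 124888221). Cd79a is on chromosome 7 (24897381 to 24902197, plus strand), Cd79b on chromosome 11 (106311341 to 106314762, minus strand) and Ms4a1 on chromosome 19 (11249675 to 11266241, minus strand). GENCODE M21 places an antisense gene over Cd3e and another over Ms4a1, and the strand setting used to make the FPKM was not given in the sources used here.

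The smallest steps between FPKM values correspond to about 20400000 to 30900000 scaling reads per mouse if fragments of 200 bases are assumed. At this depth the 7 genes that could be tested rest on about 8 to 585 reads per mouse. Cd79a rests on about 2 to 9 reads in CKD mice and 9 to 41 in CKD+Fe mice, and Ms4a1 on about 2 to 11 in any mouse. FPKM are relative to the total of each mouse. In these values most genes were higher in CKD mice, the median over the 13148 genes tested being a log2 fold change of 0.50, and member changes are read against that shift.

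In CKD against control mice, which asks what the adenine diet alone does to these transcripts, 6 of the 7 genes with enough expression to be tested were higher. These were Cd3d, Cd3g, Cd4, Cd8a, Cd8b1 and Cd79b, and Cd3e was not called. Of all genes tested, 54.6% were called higher and 13.3% lower, at an adjusted p under 0.05 by limma on log2(FPKM + 1) with Benjamini-Hochberg adjustment. The median log2 fold change of the 7 was 0.87, against 0.50 for all genes. After median-of-ratios rescaling, which brought the median of all genes to -0.026, 2 of the 7 (Cd4 and Cd79b) were called higher. That is near the share of all genes called higher under this rescaling, 27.2%. After quantile normalization none of the 7 was, at an adjusted p of 0.133 or more, where 24.4% of all genes were. The log2 fold changes of Cd3e (-0.078) and Cd8a (-0.14) turned negative with it. Cd79a and Ms4a1 did not reach the filter of 1 FPKM in at least 4 mice, which Cd79a reached in 1 mouse and Ms4a1 in 0 mice. No control mouse reached 1 FPKM for Cd4 (highest 0.829 FPKM) or Cd8b1 (highest 0.964 FPKM). Both passed the filter only through mice on the adenine diet, which limits what their calls add to the count.

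Among the chains of the T cell receptor complex, Cd3d measured 0.619, 0.567, 0.908 and 1.47 FPKM in the control mice, 2.8, 2.74, 4.19 and 0.789 FPKM in the CKD mice 021320, 022301, 110310 and 120102, and 3.59, 2.83, 2.63 and 2.37 FPKM in the CKD+Fe mice. All CKD mice but 120102 lay above every control mouse. The log2 fold change in CKD mice was 0.87 (standard error 0.27, limma adjusted p = 0.0113). Cd3e read (in FPKM) 0.624, 1.10, 0.798 and 1.44 in control mice, 3.44, 1.5, 3.66 and 0.863 in CKD mice, and 4.6, 2.71, 2.69 and 1.58 in the mice given iron. The CKD value exceeded the control value by 0.67 on the log2 scale (standard error 0.30, limma adjusted p = 0.0577), which did not pass the threshold. Without CKD mouse 120102 it was 0.92 (adjusted p = 0.0109), and without control mouse 042310 it was 0.78 (adjusted p = 0.0496).

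Cd3g was the most abundant of the 9 in every group on average. It read (in FPKM) 0.874, 1.81, 1.68 and 2.17 in control mice, 4.95, 4.80, 7.54 and 1.07 in CKD mice, and 7.57, 7.40, 8.28 and 4.86 in the mice given iron. Mouse 120102 again lay inside the range of the control mice, with the other CKD mice above it. The log2 fold change in CKD mice was 0.94 (standard error 0.34, limma adjusted p = 0.0261). This call was lost when control mouse 012811 (0.79, adjusted p = 0.0794) or CKD mouse 021320 (0.86, 0.0646), 022301 (0.87, 0.0657) or 110310 (0.68, 0.0832) was left out, and without 120102 the log2 fold change was 1.36 (adjusted p = 0.000235).

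Of the co-receptors, Cd4 separated CKD from control mice. It read (in FPKM) 0.302, 0.510, 0.70 and 0.829 in control mice, 3.80, 2.71, 5.24 and 1.06 in CKD mice, and 8.20, 3.45, 5.73 and 2.83 in the mice given iron. All CKD mice, 120102 included, lay above all control mice (two-sided exact permutation, p = 0.0286, which is the lowest possible with 4 against 4). Cd4 was the only 1 of the 9 genes without overlap in this comparison, where 38.8% of the genes above 0 in any mouse had CKD mice wholly above control mice. Its mean rose from 0.586 ± 0.230 FPKM (SD, n = 4) to 3.20 ± 1.76 FPKM (SD, n = 4), a log2 fold change of 1.31 (standard error 0.32, limma adjusted p = 0.00283).

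The CD8 chains had smaller changes than Cd4. Cd8a read (in FPKM) 0.307, 0.596, 0.726 and 1.21 in control mice, 1.22, 2.31, 1.84 and 0.699 in CKD mice, and 1.99, 1.70, 1.89 and 2.26 in the mice given iron. Cd8b1 read (in FPKM) 0.192, 0.306, 0.489 and 0.964 in control mice, 1.13, 1.96, 2.99 and 0.811 in CKD mice, and 2.51, 1.76, 2.47 and 2.1 in the mice given iron. For both chains mouse 120102 was again the only CKD mouse below the highest control mouse. The log2 fold change in CKD mice was 0.54 for Cd8a (standard error 0.21, limma adjusted p = 0.0332) and 0.83 for Cd8b1 (standard error 0.23, adjusted p = 0.00605). That of Cd8a is close to the 0.50 of all genes on this scale, where adding 1 to the FPKM understates changes of low genes. The ratio of mean FPKM was 2.14 for Cd8a and 3.53 for Cd8b1. The call of Cd8a was lost without control mouse 012811 (0.42, limma adjusted p = 0.109) or 012822 (0.52, 0.0716). It was also lost without CKD mouse 022301 (0.39, 0.113) or 110310 (0.47, 0.0766).

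The B cell genes did not move as a set. Cd79b read (in FPKM) 0.573, 1.09, 2.90 and 0.702 in control mice, 2.81, 5.64, 5.83 and 2.32 in CKD mice, and 5.69, 4.14, 5.19 and 4.27 in the mice given iron. Control mouse 042301 lay above CKD mice 021320 and 120102, so the groups overlapped, and the log2 fold change in CKD mice was 1.18 (standard error 0.29, limma adjusted p = 0.00291). Cd79a, whose protein pairs with that of Cd79b, measured 0.0909, 0.153, 0.489 and 0.132 FPKM in control mice and 0.290, 0.25, 0.169 and 0.0608 FPKM in CKD mice. These ranges overlapped, and in the fit without the filter the log2 fold change of Cd79a was -0.021 (95% confidence interval -0.35 to 0.31, limma adjusted p = 0.932). Without control mouse 042301 it was 0.08 (adjusted p = 0.683) and without CKD mouse 120102 it was 0.034 (adjusted p = 0.897). Ms4a1 measured 0.0324, 0.0271, 0.0799 and 0.107 FPKM in control mice and 0.0467, 0.122, 0.0571 and 0.0651 FPKM in CKD mice, again with overlap.

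**Figure D1:**
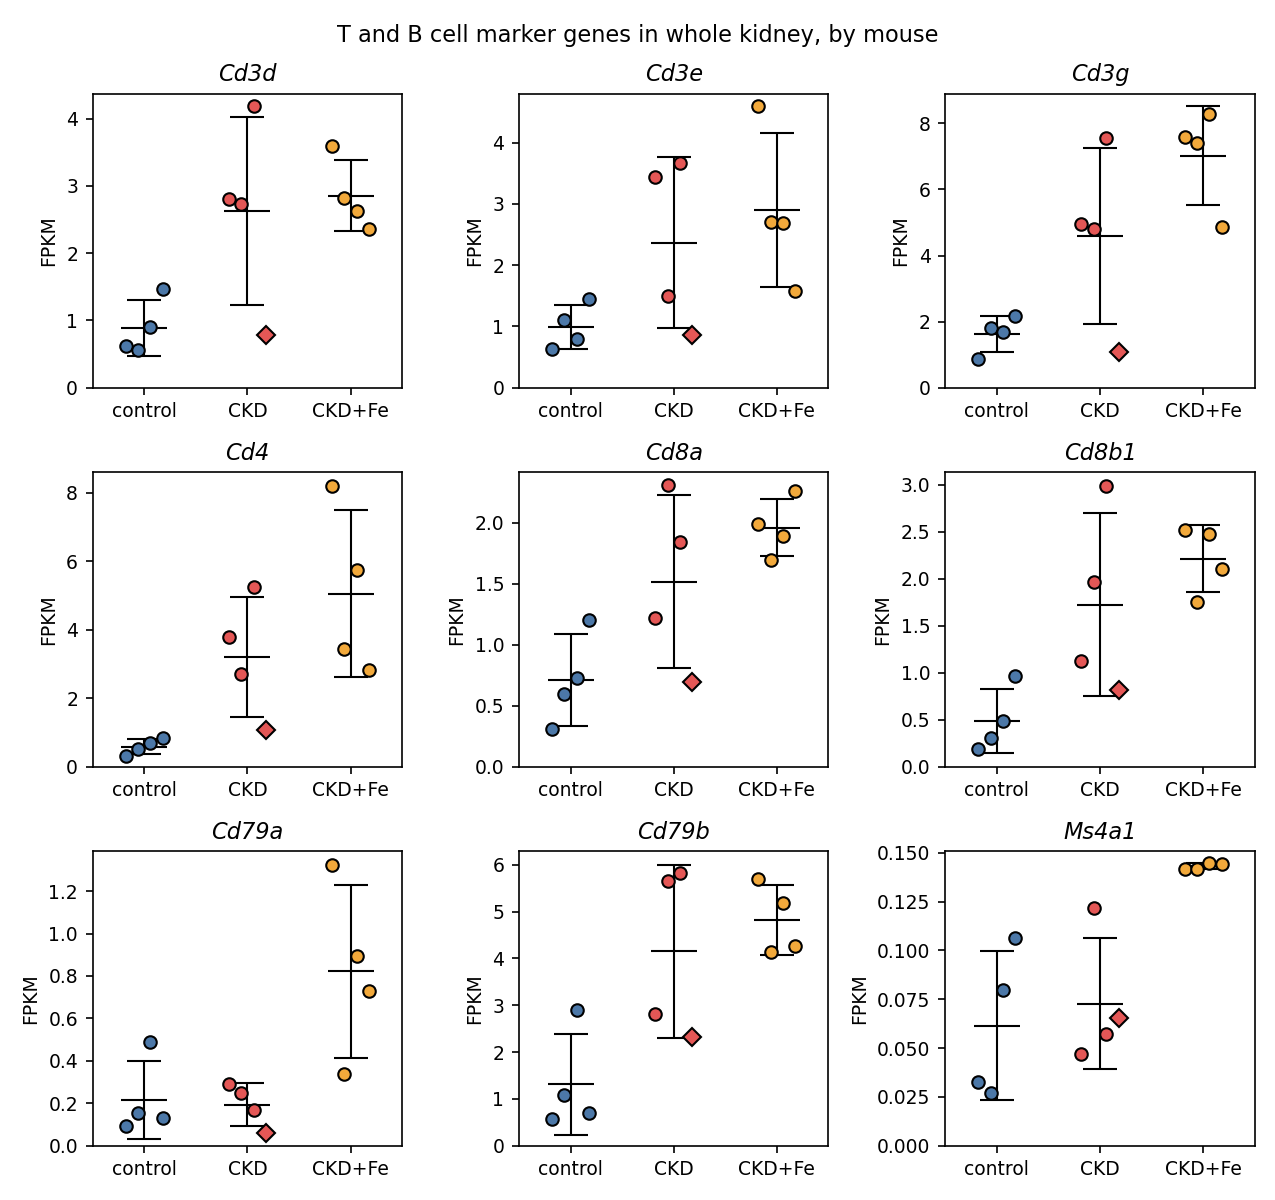
FPKM of the 9 marker genes (vertical axes, from 0) in control, CKD and CKD+Fe mice, with 1 point per mouse and bars for the mean and SD of 4 mice. CKD mouse 120102, drawn as a diamond, is the lowest CKD mouse for 8 of the 9 genes, and Cd79a and Ms4a1 are higher in all CKD+Fe than in all CKD mice.

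CKD mouse 120102 was the lowest of its group for 8 of the 9 genes, Ms4a1 being the exception, and for 24.5% of all genes tested. Its summed CD3 transcripts, 2.72 FPKM, lay between the control mice at 2.12 and 5.08 FPKM, whereas the other CKD mice reached 9.04 to 15.4 FPKM. Its summed macrophage transcripts of 1780 FPKM and neutrophil transcripts of 145 FPKM were above those of every control mouse, which reached 258 and 6.68 FPKM. Without this mouse 7 of 7 genes were called higher, and 5 of 7 were after median-of-ratios rescaling. Of all 13086 genes tested then, 6752 and 3209 were called higher. Without control mouse 012811, or without CKD mouse 022301 or 110310, 4 of 7 were called higher. Over all genes these calls were 6656 of 13112, 6521 of 13067 and 7313 of 13097. An earlier analysis of all genes had placed 3 mice (control 042301, CKD 110310 and CKD+Fe 042702) apart from their groups. Without these 3 mice 4 of 7 were called higher, where 7705 of all 12951 genes were.

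The comparison of CKD+Fe with CKD mice asks what iron adds to CKD. None of the 7 tested genes was called, with adjusted p of 0.871 to 0.987 by limma and none at an unadjusted p under 0.05, where the lowest was 0.0721 for Cd3g. Of all genes tested, 0.00761% were called higher and 0.0% lower. The log2 fold changes of the 7 ran from 0.18 for Cd3d to 0.67 for Cd3g, with a median of 0.27 against -0.00050 for all genes. Their 95% confidence intervals were wide, reaching from -0.069 to 1.41 for Cd3g, from -0.14 to 1.24 for Cd4 and from -0.40 to 0.75 for Cd3d, so that changes of either sign or of appreciable size could not be told from none. Without CKD mouse 120102 the value of Cd3d was -0.13 and that of Cd3g was 0.25.

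Cd79a and Ms4a1, the members below the filter, were the ones whose CKD+Fe mice all lay above the CKD mice. Cd79a measured 1.32, 0.340, 0.896 and 0.728 FPKM in CKD+Fe mice 042702, 062910, 111710 and 122320, against 0.0608 to 0.290 FPKM in CKD mice. Its mean was 0.821 ± 0.407 FPKM (SD, n = 4) with iron and 0.193 ± 0.101 FPKM (SD, n = 4) without, a ratio of 4.27. In the fit without the filter the log2 fold change of FPKM + 1 was 0.59 (standard error 0.15, 95% confidence interval 0.26 to 0.92), with an unadjusted p of 0.00236 and a limma adjusted p of 0.402, which does not pass the threshold (exact two-sided permutation p = 0.0286). Across the other settings and with each mouse left out, the log2 fold change of Cd79a stayed between 0.44 and 1.61 and its adjusted p between 0.0814 and 0.838.

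Ms4a1 measured 0.142, 0.142, 0.145 and 0.144 FPKM in CKD+Fe mice, above the 0.0467 to 0.122 FPKM of CKD mice, with about 8 to 11 reads per mouse behind each value. The log2 fold change of 0.09 (standard error 0.03, limma adjusted p = 0.491) was not called. Cd79a and Ms4a1 are 2 of 9 members without overlap, where 1.33% of the genes above 0 in any mouse had CKD+Fe mice wholly above CKD mice.

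CKD+Fe against control mice shares its control samples with the first comparison and its iron-treated samples with the second. All 7 tested genes were called higher, where 54.4% of all genes were called higher and 11.0% lower. The log2 fold changes ran from 0.81 for Cd8a to 1.86 for Cd4, with a median of 1.13 against 0.50 for all genes, and limma adjusted p ran from 0.000256 to 0.0137. For 8 of the 9 genes every CKD+Fe mouse lay above every control mouse, Cd79a being the exception through control mouse 042301 and CKD+Fe mouse 062910, and the same held for 43.4% of the genes above 0 in any mouse. In the fit without the filter the log2 fold change was 0.57 for Cd79a (standard error 0.15, limma adjusted p = 0.0081) and 0.11 for Ms4a1 (standard error 0.03, adjusted p = 0.0094), and that of Ms4a1 turned to -0.051 with quantile normalization. Without the 3 mice placed apart 6 of the 7 were called, Cd3e being lost (0.70, adjusted p = 0.0533), where 7508 of all 12951 genes were called higher. After median-of-ratios rescaling 5 of the 7 were called higher, and after quantile normalization 1 was, Cd4 (log2 fold change 1.17, adjusted p = 0.0112). Of all 13148 genes, 3427 were called higher after the former and 2778 after the latter.

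**Figure D2:**
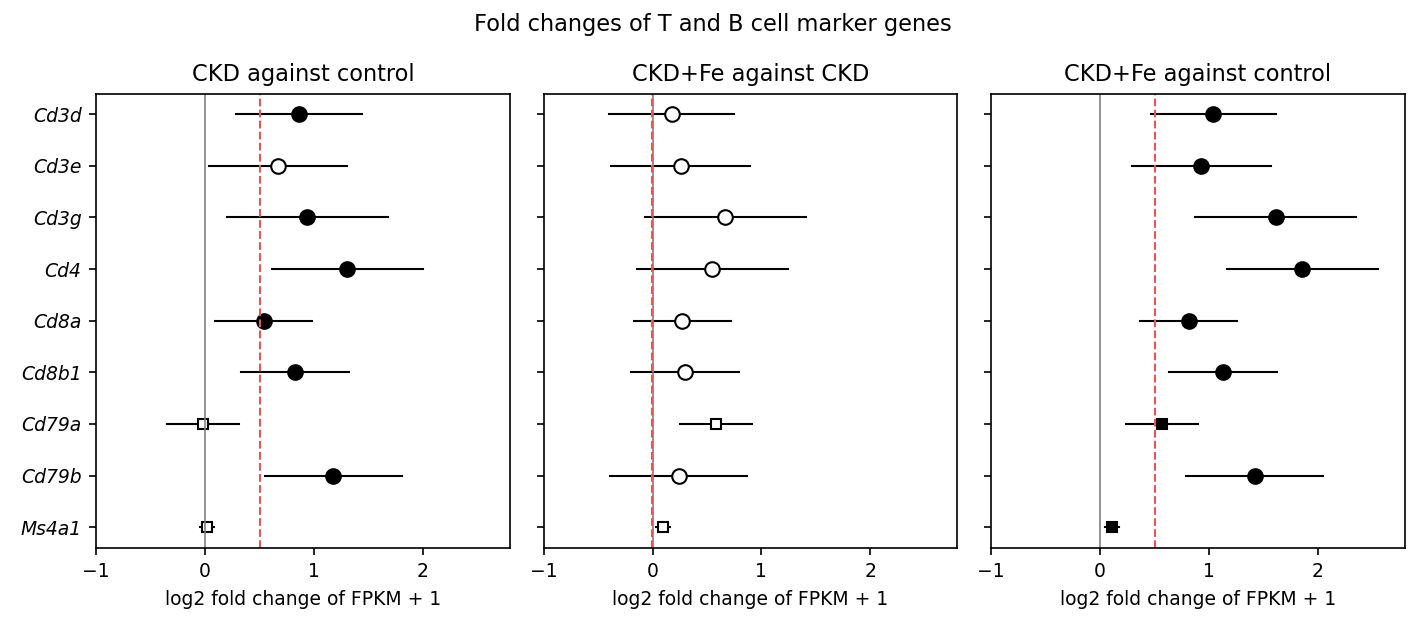
Log2 fold change of FPKM + 1 (horizontal axes) of the 9 genes in the 3 comparisons, with 95% confidence intervals. Filled symbols passed an adjusted p of 0.05, squares are the genes fitted without the filter (Cd79a and Ms4a1), and the dashed line is the median of all genes tested, at 0.50 in the comparisons with control mice and -0.00050 in CKD+Fe against CKD mice. Every symbol for CKD+Fe against CKD is open.

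By mean level Cd3g came first and Cd79a and Ms4a1 last in every group, while Cd4 changed its place most. In CKD+Fe mice the means ran from Cd3g (7.03 ± 1.5 FPKM, SD, n = 4) through Cd4 (5.05 ± 2.44), Cd79b (4.82 ± 0.742), Cd3e (2.90 ± 1.25), Cd3d (2.85 ± 0.528), Cd8b1 (2.21 ± 0.356) and Cd8a (1.96 ± 0.235) to Cd79a (0.821 ± 0.407) and Ms4a1 (0.143 ± 0.002). Neighbours in this order overlapped in range, except that Cd79a lay below Cd8a and Ms4a1 below Cd79a in all mice of the group. In control mice Cd3g (1.63 ± 0.548 FPKM), Cd79b (1.32 ± 1.08) and Cd3e (0.991 ± 0.360) came first, and all neighbours overlapped. Cd4, at 0.586 ± 0.230 FPKM, stood below Cd8a (0.709 ± 0.376) in control mice and above it in both CKD groups.

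Ratios between transcripts of the same mouse do not change when all its values are divided by a common factor, as in median-of-ratios rescaling. Quantile normalization can change them, and the ratios below are of the deposited FPKM only. Their choice was made after the values were seen. Cd4 over Cd8a was 0.984, 0.856, 0.964 and 0.687 in control mice, 3.12, 1.17, 2.84 and 1.52 in CKD mice, and 4.12, 2.03, 3.03 and 1.25 in CKD+Fe mice. All CKD and all CKD+Fe mice lay above the control mice (exact two-sided permutation p = 0.0286 for each, adjusted p = 0.0643 over 9 ratio tests), and the CKD and CKD+Fe mice overlapped (exact p = 0.60). With the other CD8 chain this separation was absent. Cd4 over Cd8b1 was not tested, and it lay within the control range in CKD mice 022301 and 120102 and CKD+Fe mouse 122320.

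Cd3e was also set against Ptprc, which encodes the leukocyte surface protein CD45. Cd3e over Ptprc was 0.355 to 0.597 in control mice, 0.0612 to 0.342 in CKD mice and 0.113 to 0.299 in CKD+Fe mice. This ratio of Cd3e was lower in all mice on the adenine diet than in all control mice (exact two-sided permutation p = 0.0286 for each group, adjusted p = 0.0643 over 9 ratio tests). The separation did not extend to all CD3 chains. Cd3d and Cd3g over Ptprc were not tested, and in CKD mouse 110310 both lay within the range of the control mice. Cd3g over Ptprc did so in CKD+Fe mouse 062910 too. Ptprc itself was 1.76 to 3.98 FPKM in control mice and 10.7 to 23.3 FPKM in CKD mice. Cd79b over Ptprc overlapped between the groups, at 0.177 to 1.54 in control mice, 0.141 to 0.545 in CKD mice and 0.290 to 0.370 in CKD+Fe mice.

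Within the paired chains, Cd79a over Cd79b was 0.141 to 0.189 in control mice, 0.0262 to 0.103 in CKD mice and 0.0821 to 0.232 in CKD+Fe mice. The CKD mice lay below the control mice without overlap, CKD+Fe mice overlapped both, and the difference was not tested. The ratio rests on few reads of Cd79a, about 4 to 15 in control mice and 2 to 9 in CKD mice. Cd8a over Cd8b1 was 1.25 to 1.95 in control mice, 0.617 to 1.18 in CKD mice and 0.765 to 1.08 in CKD+Fe mice, again with control mice apart and not tested. Within the CD3 chains, Cd3d over Cd3e overlapped between all groups, at 0.516 to 1.14, 0.813 to 1.82 and 0.781 to 1.5.

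**Figure D3:**
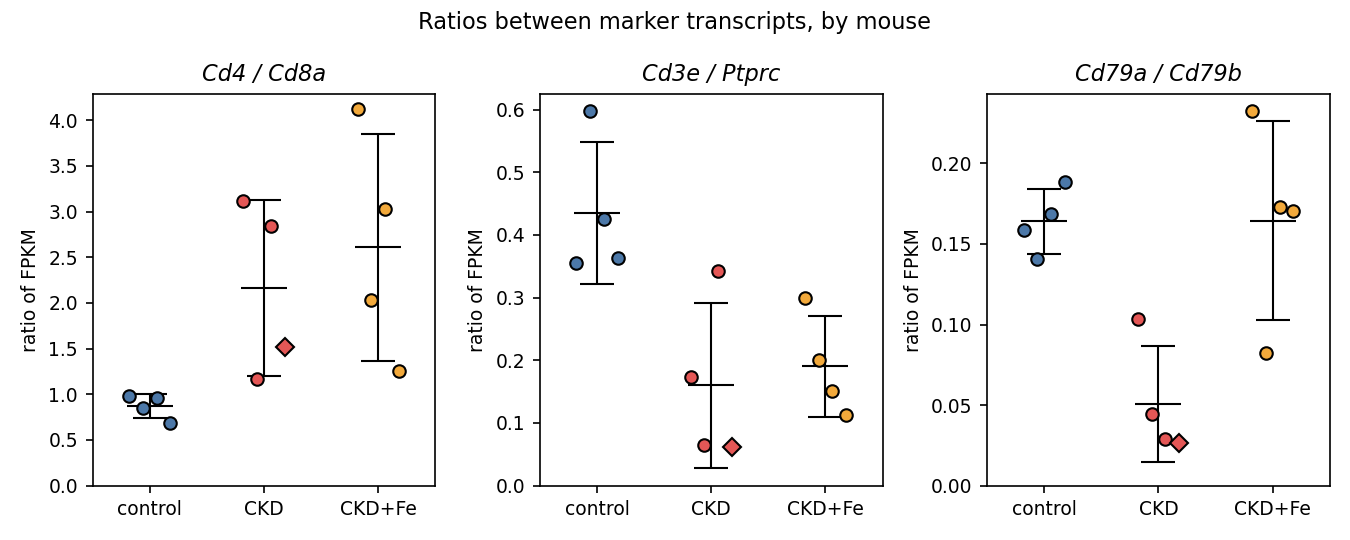
Ratios of FPKM within each mouse (vertical axes, from 0), with 1 point per mouse, bars for the mean and SD of 4 mice, and CKD mouse 120102 as a diamond. Cd4 over Cd8a is 1.17 or more in all mice on the adenine diet and 0.984 or less in the control mice, Cd3e over Ptprc is highest in control mice, and Cd79a over Cd79b is lowest in CKD mice. In CKD mice Cd79a rests on about 2 to 9 reads.

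Of 23 genes of T cell signalling and identity, 15 could be tested and 14 were called higher in CKD mice (10 after median-of-ratios rescaling, 6 after quantile normalization), with a median log2 fold change of 0.96. Beside this and the lists that follow, the share of all genes called higher was 54.6% as deposited, 27.2% after median-of-ratios rescaling and 24.4% after quantile normalization. The 3 most abundant were Thy1, a surface glycoprotein of T cells and also of fibroblasts, Lck, the kinase that starts receptor signalling, and Lat, its adaptor. Thy1 was 2.54 ± 0.612 FPKM in control and 25 ± 13.9 FPKM in CKD mice (SD, n = 4, log2 fold change 2.76, limma adjusted p = 3.62e-06). Lck was 1.20 ± 0.519 and 4.92 ± 2.18 FPKM (1.37, adjusted p = 0.000729), and Lat 1.03 ± 0.155 and 3.53 ± 1.85 FPKM (1.06, adjusted p = 0.00222). With iron Thy1, Lck and Lat stood at 19.98 ± 4.49, 5.48 ± 1.61 and 5.34 ± 0.882 FPKM, and their log2 fold changes against CKD mice were -0.20, 0.19 and 0.58 (adjusted p of 0.984, 0.985 and 0.802). Against control mice 15 of 15 were called higher in CKD+Fe mice, and against CKD mice 0 were.

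Genes of T cell subsets and trafficking were less uniform. Of 8 tested among 12, 6 were called higher in CKD mice, 3 higher and 1 lower after median-of-ratios rescaling and none after quantile normalization. Among the most abundant were Gata3, a transcription factor of T helper cells, and S1pr1, the receptor by which lymphocytes leave lymphoid tissue, and both are also expressed outside T cells. Gata3 (0.52, adjusted p = 0.0436) and S1pr1 (0.60, adjusted p = 0.0146) were called higher, near the 0.50 of all genes, and both were negative after quantile normalization (-0.14 and -0.13), Gata3 also after median-of-ratios rescaling (-0.028). Without CKD mouse 120102 Gata3 was not called (0.45, adjusted p = 0.11).

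Of the 19 genes of the B cell identity list, 7 could be tested and 7 were called higher in CKD mice (6 after either rescaling), with a median log2 fold change of 1.46. The most abundant were Blnk, an adaptor of B cell receptor signalling that macrophages use as well, Cd72, a B cell co-receptor also found on myeloid cells, and Cd37, a tetraspanin of many leukocytes. Blnk was 10.7 ± 4.26 FPKM in control and 30.8 ± 2.86 FPKM in CKD mice (SD, n = 4, log2 fold change 1.5, limma adjusted p = 1.85e-05), Cd72 6.29 ± 1.89 and 34.8 ± 14.4 FPKM (2.22, adjusted p = 6.53e-05), and Cd37 1.94 ± 0.503 and 10.5 ± 3.32 FPKM (1.94, adjusted p = 6.26e-05). The other genes called, named here after their values were seen, were Cd22, an inhibitory receptor of B cells (1.44, adjusted p = 0.000516), Spib, a transcription factor of B cells and plasmacytoid dendritic cells (1.37, adjusted p = 4.51e-05), Cd180, a receptor of B cells and myeloid cells (1.46, adjusted p = 0.000158), and Ebf1, a transcription factor of the B lineage and of some stromal cells, which was 0.70 (adjusted p = 0.00142) but -0.083 after quantile normalization. Of the 12 genes below the filter, 3 (Fcer2a, Bank1 and Tnfrsf13c) had all CKD mice above all control mice, which is 25% where 38.8% of the genes above 0 in any mouse did. Of the B cell members Cd79b alone reached 1 FPKM in most mice, 10 of 12.

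Among 8 plasma cell genes, 6 could be tested and 2 were called higher in CKD mice, 3 higher and 2 lower after quantile normalization. Jchain, which joins the units of secreted IgA and IgM, varied most within a group. It read (in FPKM) 2.8, 6.12, 3.69 and 3.31 in control mice, 73.6, 33.2, 3.00 and 1.0 in CKD mice, and 68.8, 27.6, 28.9 and 34.1 in the mice given iron. CKD mouse 110310 lay within the control range, 120102 below it and the other CKD mice above it, and the comparison with control was not called (log2 fold change 1.31, standard error 0.86, limma adjusted p = 0.192), while CKD+Fe against control mice was (adjusted p = 0.0081). Sdc1, a surface proteoglycan of plasma cells and of epithelium, was 5.73 ± 1.21 FPKM in control and 53.4 ± 8.77 FPKM in CKD mice (log2 fold change 3.02, adjusted p = 6.13e-08), and Xbp1, a factor of secretory cells, was 121 ± 18.2 and 150 ± 20.4 FPKM (0.31, adjusted p = 0.0813).

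Of 10 chemokines and cytokines of lymphoid tissue, 6 could be tested and 5 were called higher in CKD mice, 4 higher and 1 lower after median-of-ratios rescaling. Tnfsf13b, the B cell survival factor BAFF, was 1.25 ± 0.491 FPKM in control and 14.0 ± 2.53 FPKM in CKD mice (SD, n = 4, log2 fold change 2.74, limma adjusted p = 7.37e-07). Ltb, a lymphotoxin chain, was 1.35 ± 0.482 and 9.06 ± 4.03 FPKM (2.03, adjusted p = 9.41e-05). Cxcl12, a chemokine that stromal cells make, was 82.7 ± 17.6 and 73.6 ± 44.3 FPKM (-0.30, adjusted p = 0.382) and was the gene called lower after that rescaling (-0.91, adjusted p = 0.0147). The cytotoxic and natural killer list had 5 tested of 12 and 2 called higher, 4 without CKD mouse 120102 and 0 higher with 1 lower after quantile normalization. Its most abundant genes were Ccl5 (7.31 ± 3.74 and 21.8 ± 16.9 FPKM, log2 fold change 1.27, adjusted p = 0.0201), Nkg7 (0.59, adjusted p = 0.147) and Klrd1 (0.96, adjusted p = 0.00133).

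**Figure D4:**
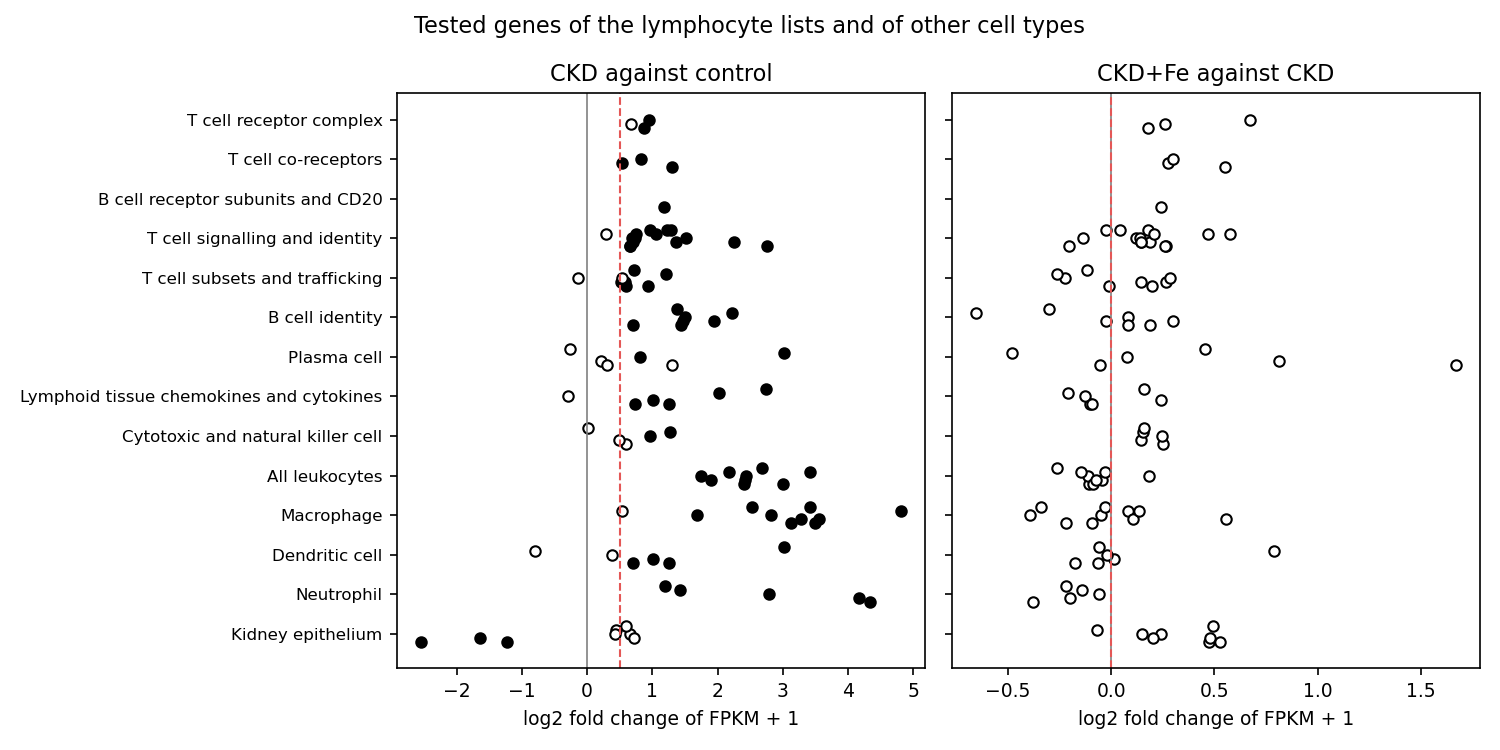
Log2 fold change of FPKM + 1 (horizontal axes) of every tested gene of the marker lists, with 1 point per gene, filled where the adjusted p was under 0.05, and a dashed line at the median of all genes. For CKD against control the macrophage, neutrophil and general leukocyte genes lie furthest to the right, and no point is filled for CKD+Fe against CKD.

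General leukocyte and macrophage transcripts were also higher in sum in the same tissue of CKD mice. Unlike the CD3 transcripts, they were so in mouse 120102 too. All 9 general leukocyte genes were called higher in CKD mice, with a median log2 fold change of 2.42, led in abundance by Cd52 (2.44) and Laptm5 (2.69), and their sum ran over 79.6 to 138 FPKM (control), 449 to 818 FPKM (CKD) and 457 to 783 FPKM (CKD+Fe). Of 10 macrophage genes 9 were called higher, with a median of 3.20, led by Lyz2 (4.81) and C1qb (3.5), and their sum was 135 to 258, 1780 to 3686 and 1653 to 3769 FPKM. After either rescaling 9 genes of each of these lists were again called higher. The summed CD3 transcripts were 2.12 to 5.08, 2.72 to 15.4 and 8.80 to 15.8 FPKM. The part of these cells in the values of Cd4 and of the B cell identity genes was not tested, and in bulk tissue fewer cells of a type and less RNA per cell cannot be told apart.

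All 5 tested neutrophil genes of 7 were called higher, led by S100a8 (log2 fold change 4.34) and S100a9 (4.16), with sums of 1.82 to 6.68 FPKM (control), 61.1 to 232 FPKM (CKD) and 52.1 to 147 FPKM (CKD+Fe). Of 9 dendritic cell genes 8 were matched, 6 tested and 4 called higher (1 higher and 1 lower after quantile normalization), led by Itgax (3.01) and Batf3 (1.26), with sums of 8.02 to 12.5, 28.6 to 45.3 and 28.4 to 44.5 FPKM. The 8 kidney epithelium genes had 0 called higher and 3 lower (2 higher and 2 lower after quantile normalization), with Umod (0.45, limma adjusted p = 0.0575, but -0.17 after median-of-ratios rescaling and 0.82, adjusted p = 0.00602, after quantile normalization) and Slc34a1 (-2.54, adjusted p = 9.25e-06) the most abundant. Against CKD mice, CKD+Fe mice had 0 calls in each of the 14 lists.

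**Figure D5:**
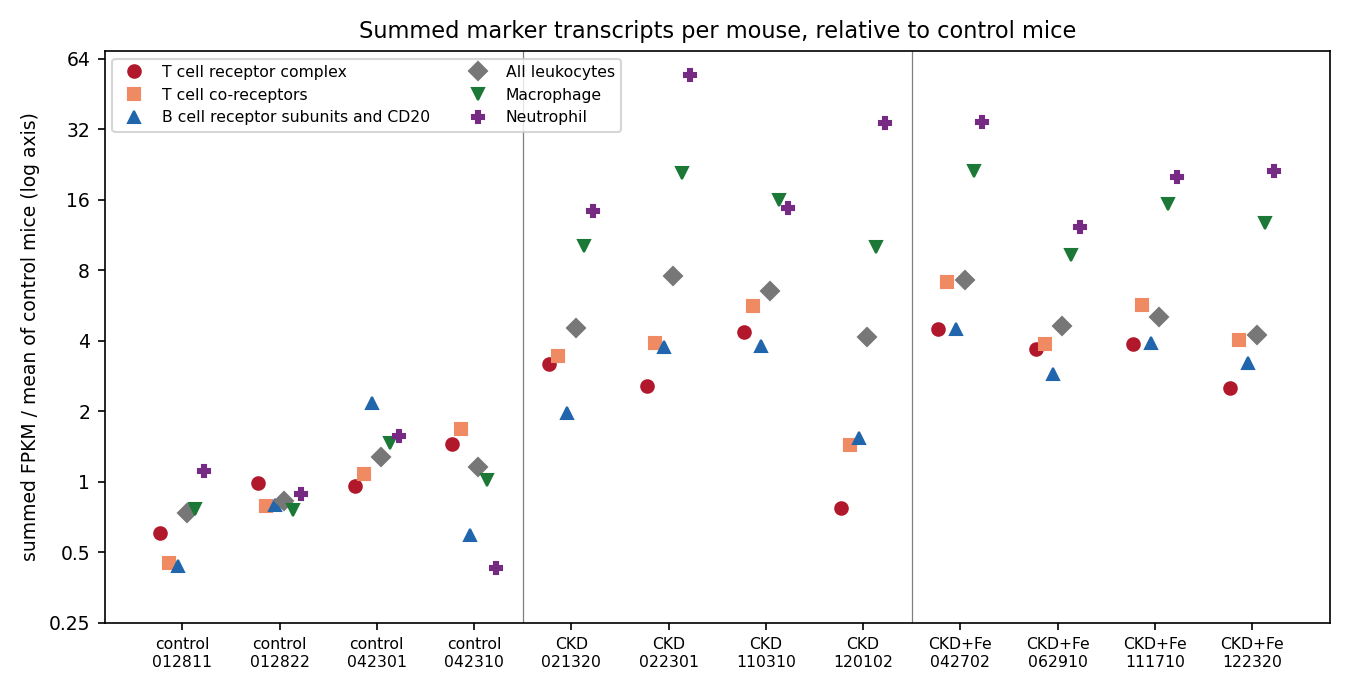
Summed FPKM of 6 gene lists in each mouse, divided by the mean of the control mice (vertical log axis), with mice along the horizontal axis. CKD mouse 120102 lies near the control mice for the CD3 transcripts (2.72 FPKM in sum) and with the other CKD mice for macrophage (1780 FPKM) and neutrophil (145 FPKM) transcripts.

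The tested genes whose pattern over the 12 mice was most like that of the CD3 chains were sought by the root mean square difference of standardised log2(FPKM + 1) profiles, where 0 is identity and the median of all tested genes was 1.01. They were Cd2 (0.252), an adhesion receptor of T cells, Itgb7 (0.266), an integrin chain of lymphocytes, Cxcr3 (0.300), a chemokine receptor of activated T cells, Ptprcap (0.315), a partner of CD45, and Ccl22 (0.318), a chemokine that draws CCR4-bearing T cells. Of the members outside the CD3 chains, Cd4 was nearest at 0.272, followed by Cd8b1 at 0.434 and Cd8a at 0.557, with Cd79b at 0.648, Cd79a at 0.934 and Ms4a1 at 0.955. The level of Cd2 averaged 0.683 ± 0.389 FPKM in control mice, 1.73 ± 1.02 with CKD and 2.14 ± 0.558 with iron (SD, n = 4), with mouse 120102 at 0.591 FPKM.

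For the mean profile of Cd79a, Cd79b and Ms4a1 the nearest genes were Tpra1 (0.302), Atp6ap1 (0.352), an accessory part of the vacuolar proton pump, Phf1 (0.353), a Polycomb-associated protein, Igf1 (0.383), a growth factor, and Msantd1 (0.393), against a median of 1.03. None of the 5 is a gene of the B cell lists. Among themselves, Cd79a, Cd79b and Ms4a1 lay 0.487, 0.557 and 0.486 from their mean, and Cd3d, Cd3e and Cd3g 0.217, 0.286 and 0.225 from theirs, a description on which the few reads of Cd79a and Ms4a1 bear.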

How the data were processed

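Whole kidney RNA of 12 mice was sequenced, and per the submitters' processing notes reads were handled with bcl2fastq 2.19, STAR 2.5.2 and Cufflinks 2.1.1. The authors deposited FPKM per gene and mouse, scaled within each mouse, without read counts. The build was not given in the sources used here. Of 21810 rows matched to GENCODE M21 (GRCm38), 99.9% overlap the same gene, so positions are on GRCm38. The 30 values marked as failed estimates were treated as missing.

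FPKM were tested as log2(FPKM + 1) with limma 3.58.1 (R 4.3.3; lmFit, contrasts.fit, eBayes with a variance trend), all 12 mice in 1 fit, over the 13148 genes that reached 1 FPKM in 4 or more mice, two-sided, with Benjamini-Hochberg adjustment and a threshold of 0.05. The pseudocount understates changes of low genes. A gene under 1 FPKM in every control mouse entered the fit only through mice on the adenine diet. Among the members these were Cd4 and Cd8b1, and listed genes such as Cd22 and Spib did so too. Counts of genes called higher against control mice are limited by this. Single values were also tested by exact permutation over 70 arrangements of 4 against 4 mice. The fit was tested on simulated data. Labels name no batch and do not say how libraries of separate mice were handled, so p-values measure the spread between these mice. The study tested counts with DESeq2, which FPKM do not allow.

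The members and the lists were chosen with earlier results of these data known. Named genes are the 9 members, the 3 most abundant of each T and B cell companion list, the 2 most abundant of each list of another cell type, with any at 0 in all mice, and the 5 nearest profiles per pattern. A gene that this rule names is not reported here. Of 136 listed symbols 135 were matched. Alternatives were a pseudocount of 0.1, other filters, rescalings, weights and thresholds, only the groups compared, and mice left out. Rescaling without mouse 120102 was added after seeing the data. Promoter sequences are from RefSeq.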

Additional observations from a re-analysis of the deposited data

Results flagged for a closer look

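Cd79a in control mouse 042301 measured 0.489 FPKM, far from the other control mice at 0.0909 to 0.153 FPKM. The gap to the nearest of them was 0.843 of the range of the group, above the critical value of 0.829 for 4 samples (Dixon's test). It was 1 such value among 27 groups of 4 mice examined, and chance gives about 1 in 20. The same mouse was the highest control mouse for Cd79b.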

How the results depend on the processing

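In CKD against control mice, 6 of the 7 tested genes were called. The count was 2 after median-of-ratios rescaling, 0 after quantile normalization and 1 after quantile normalization without CKD mouse 120102, the last chosen after seeing the data, and 4 to 7 with each mouse left out. Over all genes, calls higher and lower were 7181 and 1748 as deposited, 3571 and 4075 after median-of-ratios rescaling, and 3207 and 3319 after quantile normalization. Quantile normalization without mouse 120102 gave 2861 and 2966. For CKD+Fe against control mice 7 of 7 were called, 1 after quantile normalization and 7 with each mouse left out. Over all genes, 7159 were called higher there as deposited and 2778 after quantile normalization. For CKD+Fe against CKD mice 0 were called under every setting run. An adjusted p under 0.5, the cutoff of the study's sequencing methods, gave 7, 7 and 0 calls among the 7 tested genes, and in the fit without the filter Cd79a (0.402) and Ms4a1 (0.491) also passed it for CKD+Fe against CKD mice. The share of all genes under that cutoff is not given here, so these counts have no background beside them. The cause of these differences was not tested.

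Directions turned as follows, on the log2 scale. In CKD against control mice Cd3e (-0.078) and Cd8a (-0.14) turned after quantile normalization. Cd79a turned with array weights (0.065) and without the 3 mice that lay apart in an earlier analysis, 042301, 110310 and 042702 (0.088), and ran from -0.070 to 0.080 with each mouse left out. Ms4a1 turned after median-of-ratios rescaling (-0.025, and -0.022 without mouse 120102) and quantile normalization (-0.12, adjusted p = 0.0386, and -0.11 without that mouse), and ran from -0.0064 to 0.036 with each mouse left out. In CKD+Fe against CKD mice Cd3d turned after median-of-ratios rescaling (-0.12) and quantile normalization (-0.13) without mouse 120102, Cd3e in the latter (-0.0063), and Cd3d ran from -0.13 to 0.38 with each mouse left out. In CKD+Fe against control mice Ms4a1 turned after quantile normalization (-0.051).

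No paired analysis was possible because the groups share no replicate numbers. Depth limits Cd79a and Ms4a1, which rest on few reads per mouse and were tested only without the filter. Neither reached a mean of 1 FPKM over the 12 mice, so the filter on that mean gave no value for them.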

Other observations

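Of the 126 listed genes other than the 9 members, 3 had all CKD+Fe mice above all CKD mice, which is 2.38% where 1.33% of the genes above 0 in any mouse did. They are named here after their values were seen. Mzb1 and Derl3 were tested by limma and not called, and Trat1 lay below the filter and was left out of that fit. Trat1, an adaptor that binds the T cell receptor complex, is listed at 0 in all control and CKD mice and at 0.591, 0.187, 0.493 and 0.0825 FPKM in CKD+Fe mice. Mzb1, a chaperone of antibody-secreting cells, ran over 0.668 to 1.62 FPKM (control), 1.22 to 2.63 FPKM (CKD) and 2.8 to 5.07 FPKM (CKD+Fe) (log2 fold change of CKD+Fe against CKD mice 0.81, standard error 0.21, limma adjusted p = 0.40). Derl3, of the degradation pathway of the endoplasmic reticulum, measured 0.642 to 2.27, 0.614 to 0.905 and 1.20 to 1.72 FPKM (log2 fold change 0.45, standard error 0.19, adjusted p = 0.782).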
